A study of Oryza sativa with 12 samples.

Results

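The response of leaves of the rice variety LJ31 (LJ in the column headers and below) to salt-alkali stress, induced by bicarbonate per the series title, was described from RNA sequencing. The stressed group was 3 leaf libraries of LJ at 200 mmol/L of stress, and its controls were 3 leaf libraries of LJ labelled CK, with the same genotype and tissue label. All 7178 genes that the authors' deposited table lists for this pair of groups were used, of 13674 listed in any of the 4 tables of the series, and these are 6 of its 12 libraries. The other 6 libraries are stressed and control leaves of the variety QJ10 (QJ), used below only as levels set beside those of LJ. The variety was taken from the column headers, since the table itself carries the name of the other variety. The sources used here do not give plant age, duration of stress, the exact salts or the number of plants per sample. The table lists only genes that the authors' own test had called changed (adjusted p under 0.05, with a fold change that was 1 or more in size as a log2), so the counts below describe how the changed genes divide and not how many rice genes responded. Of the 7178 listed genes, 3131 have a name in the table and 4047 only an identifier.

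Salt-alkali stress exposes a plant to salt ions and to high pH at the same time, and high pH also makes iron and phosphate harder to take up. Leaves under salt stress are known to make abscisic acid and protective proteins, to close stomata and, when the stress is severe, to senesce. In a senescing leaf the chloroplasts are dismantled, chlorophyll is broken down through a dedicated set of enzymes, and protein, membrane lipid and nucleic acids are recycled so that nitrogen and sugars can be exported.

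Expression is given as the authors deposited it, in FPKM, a level per transcript length and library size. Differences come from limma on log2(FPKM + 1) with Benjamini-Hochberg adjustment, fitted to genes that reached 1 FPKM in 3 or more of the 6 libraries. Log2 differences are stressed minus control on that scale, with their standard error (SE), and folds are the same differences on a linear scale, given only where the lower group had at least 1 FPKM. They understate the change of genes with low values. The number of reads behind each value is unknown. Summed FPKM of the listed genes was 271982 to 272492 in the stressed and 211797 to 212921 in the control libraries. The median coefficient of variation among the 3 libraries of a group was 17.3% in stressed and 16.4% in control leaves for genes at 1 to 3 FPKM. For genes at 300 FPKM or more it was 1.62% in stressed and 1.71% in control leaves. Adjusted p-values here reflect the spread among these samples alone, which may be technical. Among the markers of leaf mesophyll, the small rubisco subunit gene RbcS3 (Os12g0291100) was at 6649 to 6919 FPKM in the controls. The controls also held RNA of 37 floral, anther and meristem genes that was lower in the stressed libraries, and these genes are described apart from the leaf processes, at the end. A few genes, OSC6 among them, are counted in lists of different kinds (leaf, cell growth or floral).

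Of 5990 tested genes 5970 passed (99.7%), with 2974 higher (49.6%) and 2996 lower (50.0%) in stressed leaves. The groups did not overlap in 5951 of the tested genes (99.3%). Since nearly every gene passed, size tells more than the call, and counts of list members below are to be read against these shares. The median log2 difference was 1.27 among the higher genes and 1.36 in size among the lower ones, and -0.54 over all tested genes. At least 8-fold changes, a log2 difference of at least 3 in size, were found in 296 higher (4.94%) and 139 lower genes (2.32%). The counts were 460 higher and 75 lower after median centring. This raised every stressed library by 0.54 on the log2 scale, the size of the median difference over all tested genes. With a pseudocount of 0.1 in place of 1 the counts were 519 higher and 510 lower, so the excess of large rises rests on the pseudocount. Of all listed genes, tested or not, 313 were at 0 in all stressed libraries and 111 in all control libraries. Fewer cells of a type and less RNA per cell cannot be told apart in these bulk samples.

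**Figure D1:**
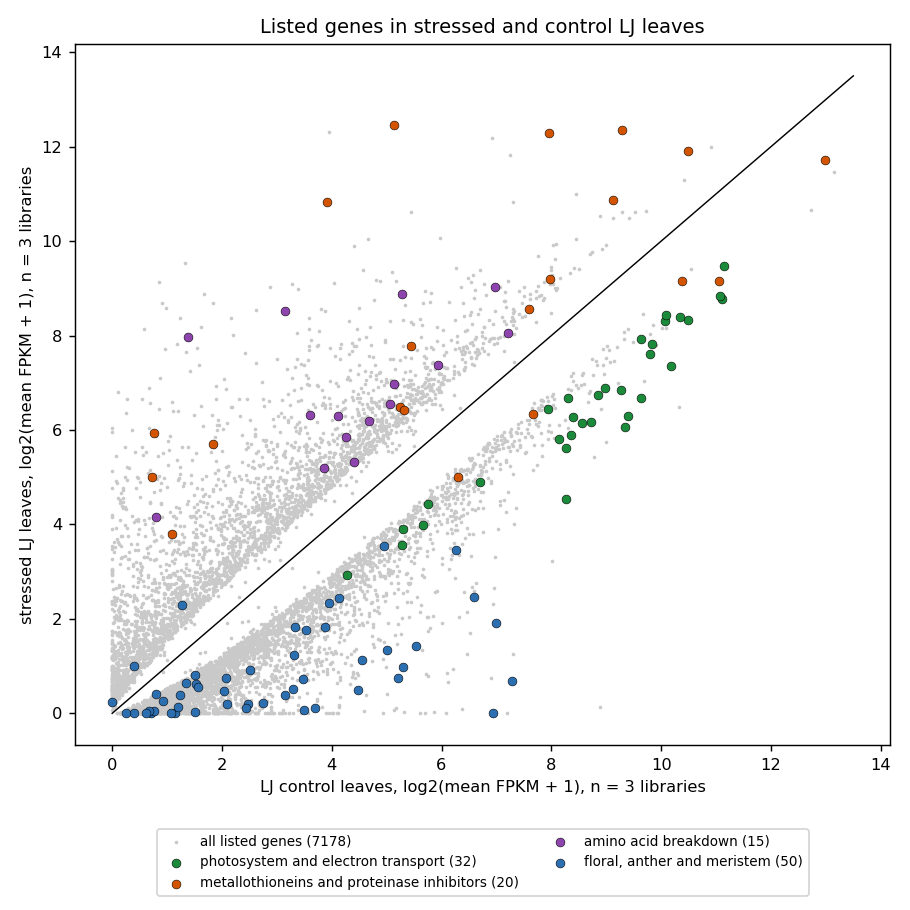
Mean expression of the 7178 listed genes in stressed LJ leaves (vertical axis) against control LJ leaves (horizontal axis), both as log2(mean FPKM + 1) over 3 libraries, with 4 gene groups in colour and a line at equal values. The empty band along the line is where genes outside the authors' selection would lie; photosystem and electron transport genes all lie under the line and amino acid breakdown genes all above it.

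The set of most abundant listed RNAs differed between the groups. The 10 genes with the largest rise in FPKM held 15.0% to 15.1% of the summed listed FPKM in the stressed libraries and 2.30% to 2.32% in the controls. The 10 with the largest fall held 3.97% to 4.02% in the stressed and 17.6% to 17.9% in the control libraries. Of the 10 that rose, 2 encode metallothioneins (small metal-binding proteins rich in cysteine), 3 encode proteinase inhibitors and 1 a jacalin-related lectin. The lectin gene OsJRL (Os01g0348900) was at 4647, 4615 and 4666 FPKM in stressed leaves, against 118, 122 and 121 FPKM in control leaves, 38.3-fold higher (log2 difference 5.26, SE 0.018). The unnamed gene Os07g0142100 was at 3611, 3643 and 3663 FPKM in stressed leaves, against 159, 137 and 157 FPKM in control leaves, and the groups lay far apart. Among the 10 that fell, 6 encode parts of the photosynthetic apparatus and 2 encode other metallothioneins. The light-regulated gene LIR1 (Os01g0102900), whose protein binds ferredoxin-NADP reductase to the thylakoid, had the highest level of any listed gene in the controls. It was at 2883, 2706 and 2845 FPKM in stressed leaves, against 9301, 8767 and 9286 FPKM in control leaves, 3.24-fold lower (log2 difference -1.70, SE 0.0303). The small rubisco subunit gene RbcS3 (Os12g0291100) was at 1628, 1640.3 and 1608 FPKM in stressed leaves, against 6919, 6649 and 6828 FPKM in control leaves, 4.18-fold lower.

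**Figure D2:**
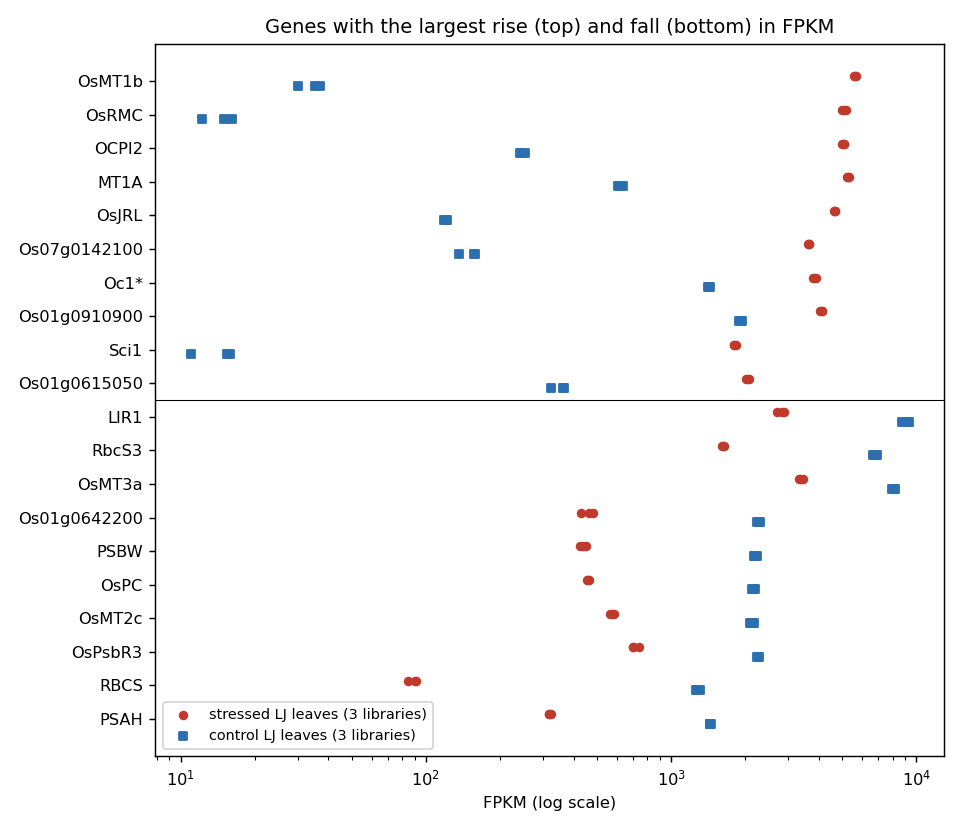
FPKM on a log axis of the 10 genes with the largest rise (upper block) and the 10 with the largest fall (lower block), with red circles for the 3 stressed and blue squares for the 3 control LJ libraries. In all 20 genes the 3 libraries of a group lie close together and the groups are separate.

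Nuclear genes of the light reactions fell together. All 26 light harvesting and photosystem genes tested were lower, with a median log2 difference of -2.14 against -0.54 over all tested genes. Their summed level was 1.54% of listed FPKM in stressed and 8.76% to 8.80% in control libraries. The photosystem II gene PSBW (Os01g0773700) was at 437, 450.3 and 424 FPKM in stressed leaves, against 2247, 2191 and 2183 FPKM in control leaves, 5.04-fold lower. In photosystem I, PSAH (Os05g0560000) was at 316, 319 and 325 FPKM in stressed leaves, against 1439, 1446 and 1448 FPKM in control leaves, 4.5-fold lower. The smallest fall of the list, 2.47-fold, was in a PsbP gene of the oxygen-evolving complex (Os12g0564400) at 20.7 ± 0.539 FPKM in stressed and 52.8 ± 2.53 FPKM in control leaves (SD, n = 3 each, as for every mean below). All 6 electron transport genes were lower too. Plastocyanin, the copper protein that carries electrons to photosystem I, is encoded by OsPC (Os06g0101600), which was at 459, 461 and 452 FPKM in stressed leaves, against 2135, 2189.8 and 2159 FPKM in control leaves, 4.71-fold lower. The Rieske protein gene petC (Os07g0556200) averaged 118 ± 0.725 FPKM in stressed and 503 ± 11 FPKM in control leaves, and the ferredoxin gene Fd1 (Os08g0104600) averaged 58.2 ± 3.53 FPKM in stressed and 326 ± 1.24 FPKM in control leaves. Organelle genes, which carry another form of identifier, were kept out of these lists. Of 8 listed 6 were tested, and 3 rose and 3 fell. Those that rose were atpI, at 2.15 ± 0.329 FPKM in stressed and 0.96 ± 0.131 FPKM in control leaves, and psbA and psbD of the photosystem II reaction centre. The gene psbA was at 45.9, 46.1 and 45 FPKM in stressed leaves, against 18.2, 26 and 20.2 FPKM in control leaves, 2.1-fold higher, and psbD was at 7.76, 5.97 and 6.57 FPKM in stressed leaves and listed at 0 in all 3 controls. Among those that fell, the ribosomal protein gene rps7-A averaged 32.7 ± 3.86 FPKM in stressed and 67.9 ± 3.08 FPKM in control leaves. The organelle genes named were singled out after their values were seen. They lay far below nuclear RbcS3, at 6649 to 6919 FPKM in the controls. How fully these libraries capture organelle RNA was not tested, so their changes carry that limit.

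Most carbon fixation genes fell as well, with exceptions inside the gene families. Of 8 Calvin cycle genes 6 fell and 2 rose. Another small rubisco subunit gene, RBCS (Os12g0274700), fell most, to 90.6, 91.2 and 84.5 FPKM in stressed leaves, against 1278, 1267 and 1309 FPKM in control leaves, 14.3-fold (log2 difference -3.84). In contrast RbcS1 (Os02g0152400), the member of this family that is little expressed in leaf blades, was at 14.2, 13.4 and 12.7 FPKM in stressed leaves, against 5.93, 6.09 and 6.26 FPKM in control leaves, 2.04-fold higher. Phosphoglycerate kinase genes were split in the same way, OsPGK3 (Os05g0496200) at 175 ± 4.28 FPKM in stressed and 560.2 ± 3.85 FPKM in control leaves and PGK (Os06g0668200) at 21.2 ± 1.72 FPKM in stressed and 8.96 ± 0.353 FPKM in control leaves. Photorespiration, which recovers carbon after rubisco has reacted with oxygen, was divided as well. The glycine cleavage gene OsGDCH (Os10g0516100) averaged 96 ± 1.51 FPKM in stressed and 406 ± 5.12 FPKM in control leaves and the serine hydroxymethyltransferase gene OsSHM1 (Os03g0738400) averaged 166 ± 5.76 FPKM in stressed and 453 ± 5.01 FPKM in control leaves, both lower. The glycolate oxidase gene GLO3 (Os04g0623500) was at 114, 113 and 118 FPKM in stressed leaves, against 12.7, 13.3 and 13.6 FPKM in control leaves, 8.16-fold higher. All 7 ribosomal protein genes of the list were lower, by log2 differences of -1.35 to -2.15, among them RPL27 (Os01g0924000) at 84.5 ± 3.77 FPKM in stressed and 217 ± 5.25 FPKM in control leaves.

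Chlorophyll synthesis and breakdown moved in opposite directions. All 7 synthesis genes were lower. OsChlH (Os03g0323200), the subunit of magnesium chelatase that opens the chlorophyll branch, was at 32.7, 28.9 and 34.6 FPKM in stressed leaves, against 104, 104 and 105 FPKM in control leaves, 3.18-fold lower. FGL (Os10g0496900), a protochlorophyllide oxidoreductase, averaged 16.4 ± 1.51 FPKM in stressed and 67.6 ± 1.87 FPKM in control leaves, and the cyclase gene OsCRD1 (Os01g0279100) averaged 34.1 ± 3.11 FPKM in stressed and 105 ± 9.37 FPKM in control leaves. Of 9 genes of chlorophyll breakdown and leaf senescence 8 rose. Chlorophyll b reductase, which starts the breakdown of chlorophyll b, is encoded by NYC1 (Os01g0227100), at 560.0, 570.2 and 556 FPKM in stressed leaves, against 91.3, 89.5 and 94 FPKM in control leaves, 6.08-fold higher (log2 difference 2.60, SE 0.0259). NYC3 (Os06g0354700), a hydrolase needed for the same pathway, averaged 314 ± 14.8 FPKM in stressed and 153 ± 16.4 FPKM in control leaves. Pheophorbide a oxygenase, which opens the chlorophyll ring, averaged 88.9 ± 1.58 FPKM in stressed and 24.2 ± 0.823 FPKM in control leaves in its gene OsPAO (Os03g0146400). The 1 gene that fell, OsSAG12 (Os09g0497500), named for a senescence-associated cysteine protease, averaged 0.0767 ± 0.0862 FPKM in stressed and 5.07 ± 0.629 FPKM in control leaves, while another gene of that name (Os04g0208200), too low to test, averaged 0.827 ± 0.41 FPKM in stressed and 0.0167 ± 0.0289 FPKM in control leaves.

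Most listed genes that recycle cell contents rose. Of 16 autophagy genes 15 rose and 1 fell, with a median log2 difference of 1.32. The ubiquitin-like protein that coats autophagosomes is encoded by Atg8 (Os07g0512200), at 461, 446 and 456 FPKM in stressed leaves, against 179, 178 and 182 FPKM in control leaves, 2.52-fold higher, and by OsATG8c (Os08g0191600), which averaged 377 ± 9.73 FPKM in stressed and 157 ± 5.6 FPKM in control leaves. OsATG16 (Os09g0497700), part of the complex that attaches that protein to membranes, averaged 5.17 ± 0.459 FPKM in stressed and 12.3 ± 0.53 FPKM in control leaves and was the member that fell. Cysteine proteases of the vacuole and apoplast had 3 rises and 1 fall in 4, and the fall was again OsSAG12. The oryzain-type protease gene ocp* (Os04g0650000) was at 1827, 1783 and 1843 FPKM in stressed leaves, against 153, 157 and 161 FPKM in control leaves, 11.5-fold higher. The gene CP (Os08g0556900) was at 95, 101 and 105 FPKM in stressed leaves, against 4.0, 4.17 and 3.74 FPKM in control leaves, 20.4-fold higher, and the vacuolar processing enzyme gene OsVPE2 (Os01g0559600) averaged 203 ± 2.22 FPKM in stressed and 80.5 ± 2.59 FPKM in control leaves.

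All 15 tested genes of amino acid breakdown rose, with a median log2 difference of 1.84. Their summed level was 0.966% to 0.972% of listed FPKM in the stressed and 0.257% to 0.263% in the control libraries. The first enzyme of lysine breakdown is encoded by OsLKR (Os02g0783700), at 479, 471 and 469 FPKM in stressed leaves, against 37.9, 37 and 38.6 FPKM in control leaves, 12.2-fold higher. OsHPPD (Os02g0168100), of tyrosine breakdown and tocopherol synthesis, was at 353, 369 and 382 FPKM in stressed leaves, against 6.77, 8.65 and 8.02 FPKM in control leaves, 42-fold higher. The largest rise of the list was in OsGABA-T (Os02g0112900), whose enzyme degrades gamma-aminobutyric acid, at 247, 254 and 252 FPKM in stressed leaves, against 1.61, 1.36 and 1.8 FPKM in control leaves, 97.5-fold higher (log2 difference 6.61, SE 0.0674). The aldehyde dehydrogenase gene ALDH7 (Os09g0440300) averaged 519 ± 5.35 FPKM in stressed and 125 ± 1.26 FPKM in control leaves and the glutamate dehydrogenase gene OsGDH2 (Os04g0543900) averaged 265 ± 2.54 FPKM in stressed and 147 ± 1.46 FPKM in control leaves, the smallest rise of the list. This list was drawn up after the names and values of the table had been seen. So were the lists of electron transport, ribosomal proteins, cysteine proteases, beta-oxidation, nucleic acid breakdown, metallothioneins, proteinase inhibitors, oxalate oxidases, ABC transporters and polyamines. Among the cell growth lists, those of primary wall cellulose synthases, pectin enzymes, TBL genes, RALF peptides, GDSL lipases, arabinogalactan proteins and kinesins were too.

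Most genes of fatty acid and nucleic acid breakdown rose too. Of 10 genes of peroxisomal beta-oxidation and the glyoxylate cycle 9 rose and 1 fell. AIM1 (Os02g0274100), the multifunctional enzyme of beta-oxidation, was at 482, 478 and 499 FPKM in stressed leaves, against 142, 139 and 143 FPKM in control leaves, 3.42-fold higher. The acyl-CoA oxidase gene OsACX4 (Os05g0163700) averaged 216 ± 5.59 FPKM in stressed and 55.2 ± 2.81 FPKM in control leaves. MS (Os04g0486950), malate synthase of the glyoxylate cycle, was at 137, 135 and 135 FPKM in stressed leaves, against 10.8, 10.1 and 11.8 FPKM in control leaves, 11.5-fold higher. Of 9 genes of RNA and purine breakdown 8 rose, among them the xanthine dehydrogenase gene XDH (Os03g0429800) at 121 ± 2.01 FPKM in stressed and 53.8 ± 2.96 FPKM in control leaves, OsUAH (Os12g0597500) of the last step of ureide breakdown at 98.3 ± 0.206 FPKM in stressed and 43.7 ± 0.944 FPKM in control leaves, and the ribonuclease gene OsRNS2 (Os01g0897200) at 98.2 ± 0.875 FPKM in stressed and 43.9 ± 2.48 FPKM in control leaves. Nitrogen and amino acid transport and metabolism had 20 rises and 8 falls in 28. OsNRT1.5B (Os02g0716800), of the family of nitrate transporters, was at 218, 215 and 219 FPKM in stressed leaves, against 11.7, 12.9 and 12.4 FPKM in control leaves, 16.4-fold higher. The peptide transporter family gene OsPTR8 (Os03g0719900) averaged 189 ± 2.35 FPKM in stressed and 15.6 ± 0.55 FPKM in control leaves. Nitrate assimilation went the other way in NiR (Os01g0357100), nitrite reductase of the plastid, at 19.6 ± 0.606 FPKM in stressed and 43.9 ± 1.45 FPKM in control leaves, and in the nitrate transporter gene NRT1.1B (Os10g0554200), at 3.49 ± 0.47 FPKM in stressed and 9.45 ± 0.312 FPKM in control leaves.

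**Figure D3:**
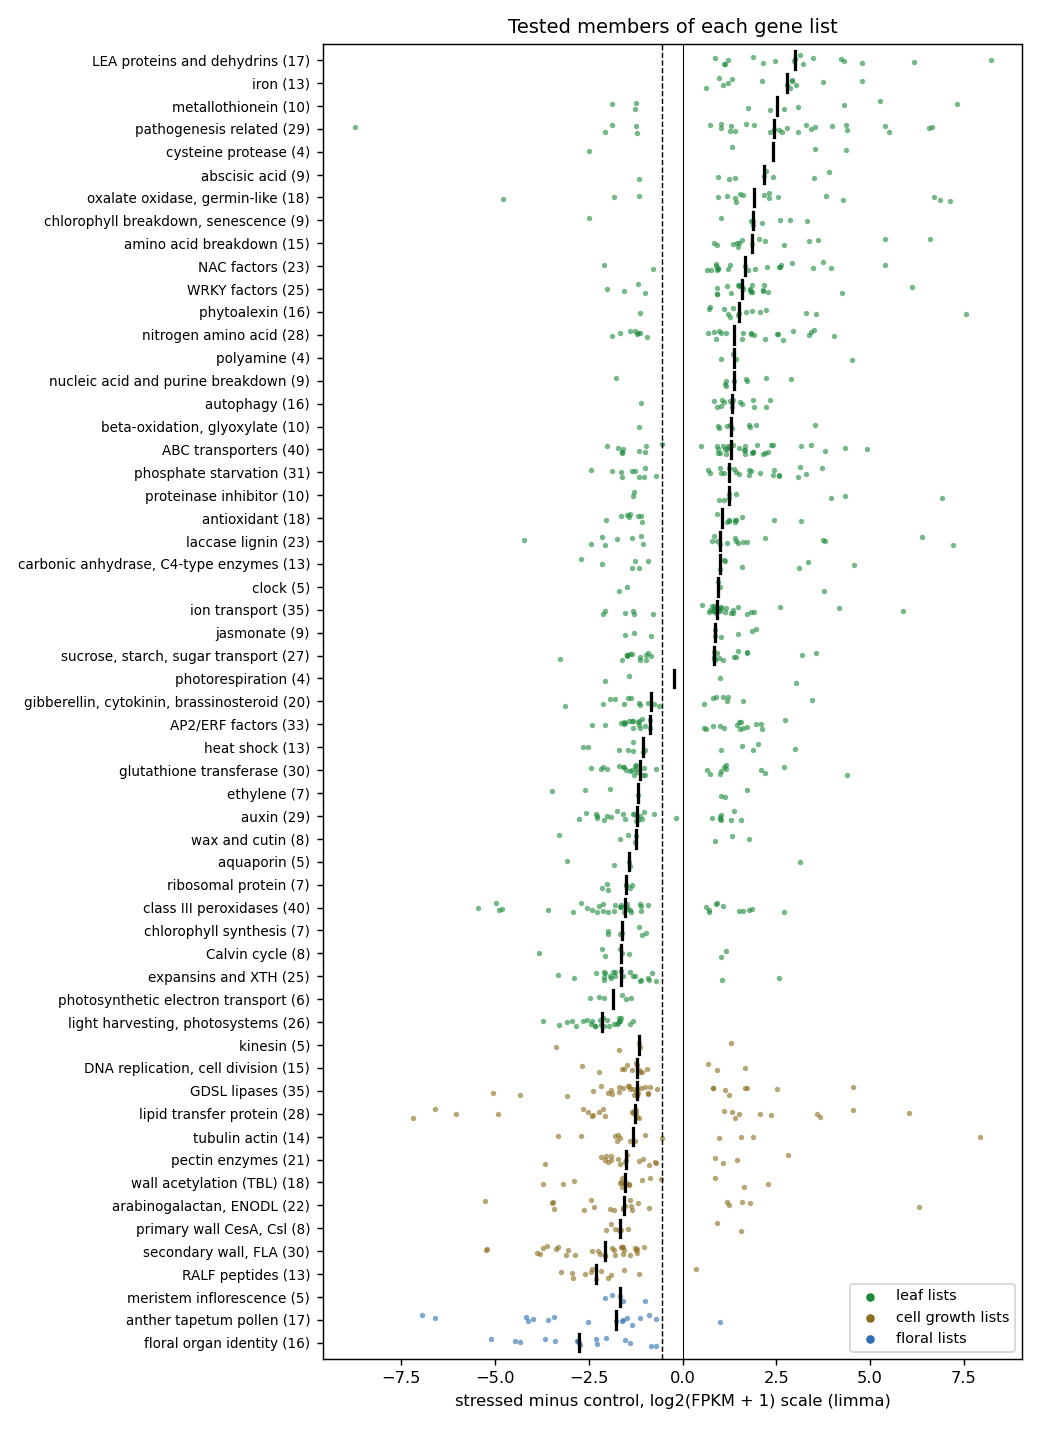
Log2 difference, stressed minus control on the log2(FPKM + 1) scale, of each tested member (points) of the gene lists with at least 3 tested members, with the number tested in brackets, the median of each list as a bar and the median of all tested genes (-0.54) as a dashed line. Leaf lists run from LEA proteins at the top to light harvesting, followed by lists of cell growth and, at the bottom, of floral organs, anthers and meristems.

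Metallothioneins changed in identity, and their summed FPKM was higher, at 17462 to 17814 in stressed and 12658 to 13051 in control libraries. The summed FPKM of all listed genes was higher in stressed libraries too, so their share differed less. Of 10 genes 7 rose and 3 fell, and the list as a whole held 6.42% to 6.54% of listed FPKM in the stressed and 5.96% to 6.13% in the control libraries. All 6 genes of the MT1 type rose. OsMT1b (Os03g0288000) was at 5615, 5692 and 5569 FPKM in stressed leaves, against 37.1, 30.2 and 35.3 FPKM in control leaves, 160.4-fold higher (log2 difference 7.33, SE 0.0657), and had the highest level of the list in stressed leaves. MT1A (Os11g0704500) was at 5200.1, 5291 and 5276 FPKM in stressed leaves, against 638, 610.0 and 620.1 FPKM in control leaves, 8.43-fold higher. OsMT2a (Os01g0149800) averaged 1876 ± 35.9 FPKM in stressed and 559.6 ± 3.14 FPKM in control leaves and also rose. The 3 that fell were led by OsMT3a (Os01g0200700), at 3369, 3446 and 3332 FPKM in stressed leaves, against 8221, 8146 and 7988 FPKM in control leaves, 2.4-fold lower. OsMT2c (Os01g0974200) averaged 573 ± 9.7 FPKM in stressed and 2131 ± 43.9 FPKM in control leaves, and OsMT2b (Os05g0111300) averaged 571 ± 3.15 FPKM in stressed and 1339 ± 29.5 FPKM in control leaves. How the authors counted reads that fit several near-identical copies is not stated in the sources, so levels within close families such as these, the germin-like genes and the proteinase inhibitors carry that uncertainty.

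Proteinase inhibitors, which block digestive enzymes of attackers and also proteases of the plant, held 4.36% to 4.45% of listed FPKM in stressed and 1.16% to 1.18% in control libraries. Of 10 genes 8 rose and 2 fell. The chymotrypsin inhibitor gene OCPI2 (Os01g0615100) was at 5067, 5080.4 and 4956 FPKM in stressed leaves, against 243, 254 and 243 FPKM in control leaves, 20.3-fold higher. Sci1 (Os12g0437800), a subtilisin and chymotrypsin inhibitor, was at 1833, 1800.0 and 1811 FPKM in stressed leaves, against 11.1, 15.8 and 15.4 FPKM in control leaves, 122-fold higher (log2 difference 6.93, SE 0.115). The oryzacystatin gene Oc1* (Os01g0803200), an inhibitor of cysteine proteases, was already abundant in the controls, at 3885, 3777 and 3808 FPKM in stressed leaves, against 1444, 1417 and 1424 FPKM in control leaves, 2.68-fold higher. The 2 that fell, RBBI2-2 (Os01g0123900) at 80.2 ± 2.07 FPKM in stressed and 201 ± 1.65 FPKM in control leaves and RBBI2-1 (Os01g0124000) at 31.3 ± 2.4 FPKM in stressed and 77.4 ± 3.12 FPKM in control leaves, are Bowman-Birk inhibitors, as are 4 that rose.

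Oxalate oxidases and germin-like proteins had 15 rises and 3 falls in 18. Oxalate oxidases release hydrogen peroxide from oxalate in the cell wall, and 3 genes of this group averaged under 3 FPKM in the controls. OsOxO3 (Os03g0693900) was at 408, 419 and 415 FPKM in stressed leaves, against 2.42, 2.89 and 2.35 FPKM in control leaves, 117-fold higher, and Osoxo4 (Os03g0694000) was at 331, 331 and 324 FPKM in stressed leaves, against 1.25, 1.44 and 1.34 FPKM in control leaves, 141-fold higher. OsGLP1-1 (Os01g0249200), a germin-like gene, moved the other way, at 7.24, 8.0 and 10.0 FPKM in stressed leaves, against 257, 256 and 255 FPKM in control leaves, 27.5-fold lower. Of 29 pathogenesis-related genes 24 rose and 5 fell, and the list held 2.37% to 2.38% of listed FPKM in the stressed and 0.859% to 0.872% in the control libraries. The PR4-class genes OsPR4c (Os11g0592000) and OsPR4 (Os11g0592200) were the most abundant of those that rose. OsPR4c was at 1049.5, 1060.2 and 1071 FPKM in stressed leaves, against 23.4, 24.6 and 24.7 FPKM in control leaves, 42.1-fold higher. OsPR4 averaged 953 ± 11.6 FPKM in stressed and 20.2 ± 2.32 FPKM in control leaves, and OsPR10a (Os12g0555500), of another class of defence protein, averaged 619 ± 11.6 FPKM in stressed and 257 ± 1.42 FPKM in control leaves. The glucanase gene Gns10 (Os01g0713200) fell and averaged 113 ± 2.76 FPKM in stressed and 415 ± 3.62 FPKM in control leaves. Diterpenoid phytoalexin genes had 15 rises and 1 fall in 16, with CYP71Z2 (Os07g0217600) at 193 ± 0.902 FPKM in stressed and 18.9 ± 0.664 FPKM in control leaves. Laccase and lignin genes had 15 rises and 8 falls in 23, with the cinnamate hydroxylase gene C4H2 (Os05g0320700) at 169 ± 5.27 FPKM in stressed and 50.6 ± 0.777 FPKM in control leaves. All 4 polyamine genes rose, and SAMDC2 (Os02g0611200), of S-adenosylmethionine decarboxylase, averaged 866 ± 4.26 FPKM in stressed and 426 ± 4.49 FPKM in control leaves.

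Antioxidant genes were divided, 10 higher and 8 lower of 18, near the share of all tested genes (49.6% higher, 50.0% lower). Among catalases, which destroy hydrogen peroxide in peroxisomes, CATB (Os06g0727200) averaged 232 ± 1.33 FPKM in stressed and 77.3 ± 1.86 FPKM in control leaves and rose. OsCatB (Os05g0310500) is counted among the 10 by its name alone, and whether it encodes a catalase was not checked. It was at 412, 406 and 415 FPKM in stressed leaves, against 174, 172 and 178 FPKM in control leaves, 2.34-fold higher. CATC (Os03g0131200), the catalase of photosynthetic tissue, was lower at 61 ± 1.6 FPKM in stressed and 163 ± 2.58 FPKM in control leaves. Glutathione reductase, in OsGR2 (Os02g0813500), averaged 289.8 ± 4.0 FPKM in stressed and 109 ± 2.6 FPKM in control leaves. APX8 (Os02g0553200), the ascorbate peroxidase of the thylakoid membrane, averaged 98.3 ± 2.83 FPKM in stressed and 225 ± 4.44 FPKM in control leaves, and the peroxidase gene OsGpx4 (Os06g0185900) averaged 60.7 ± 1.94 FPKM in stressed and 254 ± 11 FPKM in control leaves, both lower. The alternative oxidases of the mitochondrion both rose, AOX1A (Os04g0600200) to 112 ± 1.02 FPKM in stressed leaves, against 20.1 ± 0.54 FPKM in control leaves, and AOX1B (Os04g0600300) to 76.7 ± 3.45 FPKM, against 7.74 ± 0.328 FPKM. Glutathione transferases had 11 rises and 19 falls in 30, class III peroxidases 11 rises and 29 falls in 40, and heat shock factors and chaperones 5 rises and 8 falls in 13. The heat shock factor gene HSFA3 (Os02g0527300) fell most in level, at 33.5, 33.3 and 37 FPKM in stressed leaves, against 199, 202 and 204 FPKM in control leaves, 5.71-fold lower. All 17 LEA proteins and dehydrins, which protect cells during water loss, rose, with a median log2 difference of 3.01. OsLEA1 (Os04g0589800) was at 69.2, 69 and 66.9 FPKM in stressed leaves, against 2.36, 3.63 and 2.23 FPKM in control leaves, 18.8-fold higher.

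Hormone genes differed by hormone. Of 9 abscisic acid genes 8 rose. SAPK1 (Os03g0390200), a protein kinase activated by osmotic stress, was at 88.2, 89.8 and 92.1 FPKM in stressed leaves, against 16.8, 15.9 and 15.7 FPKM in control leaves, 5.31-fold higher, and the phosphatase gene OsPP2C06/OsABI2 (Os01g0583100) of the abscisic acid receptor complex averaged 144 ± 4.57 FPKM in stressed and 61 ± 2.75 FPKM in control leaves. The synthesis gene OsNCED1 (Os02g0704000) fell and averaged 3.34 ± 0.13 FPKM in stressed and 8.69 ± 0.304 FPKM in control leaves. Of 29 auxin genes 8 rose, 20 fell and 1 did not pass. Among the Aux/IAA repressors of auxin response, OsIAA17 (Os05g0230700) averaged 146 ± 2.21 FPKM in stressed and 493 ± 9.63 FPKM in control leaves and OsIAA21 (Os06g0335500) averaged 50.0 ± 4.05 FPKM in stressed and 204 ± 11 FPKM in control leaves, and OsIAA13 (Os03g0742900) was at 14, 16.8 and 11.5 FPKM in stressed leaves, against 92, 83.4 and 87.2 FPKM in control leaves, 5.93-fold lower. GH3-8 (Os07g0592600), which conjugates auxin to amino acids, averaged 53.4 ± 1.78 FPKM in stressed and 17.5 ± 0.39 FPKM in control leaves and rose. Ethylene genes had 3 rises and 4 falls in 7. OsACO1 (Os08g0191100), among the 3 that rose, is in the list by its name alone, and whether it acts in ethylene synthesis was not checked. It averaged 253 ± 1.12 FPKM in stressed and 76.9 ± 1.75 FPKM in control leaves. OsCTR1 (Os04g0243700), named for a repressor of ethylene signalling, fell and was at 0.28, 0.28 and 1.11 FPKM in stressed and 16.1, 16.1 and 15.7 FPKM in control leaves. Of 9 jasmonate genes 6 rose, led in level by the repressor gene OsJAZ2 (Os03g0180900) at 848 ± 11.6 FPKM in stressed and 415 ± 10.8 FPKM in control leaves. Gibberellin, cytokinin and brassinosteroid genes had 8 rises and 12 falls in 20, with the cytokinin receptor gene HK3 (Os01g0923700) at 71 ± 2.16 FPKM in stressed and 30.8 ± 1.01 FPKM in control leaves and the gibberellin-degrading oxidase gene OsGA2ox7 (Os01g0209700) at 5.56 ± 0.18 FPKM in stressed and 24.1 ± 0.711 FPKM in control leaves.

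Most NAC and WRKY factors rose, whereas AP2/ERF factors were divided close to the share of all tested genes. Of 23 NAC factors 21 rose and 2 fell, 1 of which no longer passed as lower after median centring or quantile normalization. OsNAC6 (Os01g0884300), a stress-responsive NAC factor, was at 1592, 1597 and 1610.3 FPKM in stressed leaves, against 821, 849 and 851 FPKM in control leaves, 1.9-fold higher, the highest level of the family. ONAC039 (Os03g0327100) averaged 416 ± 4.66 FPKM in stressed and 69.5 ± 0.891 FPKM in control leaves and NAC58 (Os03g0327800) averaged 230.0 ± 2.73 FPKM in stressed and 19.7 ± 0.365 FPKM in control leaves. Of 25 WRKY factors 21 rose and 4 fell, with OsWRKY69 (Os08g0386200) at 356 ± 4.28 FPKM in stressed and 157 ± 4.71 FPKM in control leaves and OsWRKY70 (Os05g0474800) at 322 ± 7.51 FPKM in stressed and 115 ± 4.5 FPKM in control leaves. AP2/ERF factors had 15 rises and 18 falls in 33. OsDREB1A (Os09g0522200), a factor of the cold and drought response, was at 170.3, 175 and 173 FPKM in stressed leaves, against 544, 536 and 532 FPKM in control leaves, 3.1-fold lower, and DERF12 (Os10g0562900) averaged 229 ± 6.0 FPKM in stressed and 106 ± 3.2 FPKM in control leaves and rose. Among 5 clock and light-timed genes, LHY (Os04g0583900), a morning factor of the clock, was at 28.5, 32.2 and 31 FPKM in stressed leaves, against 1.32, 1.24 and 1.38 FPKM in control leaves, 13.6-fold higher. The sources used here do not give the hour of sampling.

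Ion transport genes had 29 rises and 6 falls in 35, mostly of modest size. The cation/proton exchanger gene OsCHX15 (Os12g0616500) was at 91.7, 93.3 and 97.2 FPKM in stressed and 0.53, 0.83 and 0.50 FPKM in control leaves, a log2 difference of 5.88 (SE 0.0893). The potassium transporter gene OsHAK27 (Os03g0574900) averaged 87.2 ± 0.55 FPKM in stressed and 25.6 ± 0.465 FPKM in control leaves. OVP2 (Os06g0178900), a vacuolar proton pump driven by pyrophosphate, averaged 20.6 ± 0.915 FPKM in stressed and 88.8 ± 1.65 FPKM in control leaves and fell. All 13 tested iron genes rose. The ferritins, which store iron in plastids, rose to 410.1, 420.4 and 422 FPKM in stressed leaves, against 53, 55.1 and 54.2 FPKM in control leaves, in FER2 (Os12g0106000), and averaged 321 ± 3.7 FPKM in stressed and 38.5 ± 2.36 FPKM in control leaves in OsFER1 (Os11g0106700). OsIRO2 (Os01g0952800), a factor that turns on iron uptake genes in deficiency, averaged 89.2 ± 3.69 FPKM in stressed and 12 ± 0.665 FPKM in control leaves. Ferritin is known to rise with iron supply and OsIRO2 with its lack, and both kinds of gene were higher in the stressed libraries. Phosphate genes had 21 rises and 10 falls in 31, with the purple acid phosphatase gene OsPAP26 (Os06g0643900) at 139.6 ± 1.83 FPKM in stressed and 24.8 ± 1.63 FPKM in control leaves and OsIPS1 (Os03g0146800), a non-coding RNA of phosphate starvation, lower at 2.93 ± 0.766 FPKM in stressed and 20.3 ± 2.96 FPKM in control leaves.

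ABC transporters, pumps that move lipids, hormones and defence compounds across membranes, had 31 rises and 9 falls in 40. OsPDR9 (Os01g0609300) was at 385, 373 and 381 FPKM in stressed leaves, against 102, 101 and 105 FPKM in control leaves, 3.68-fold higher, and OsPDR8 (Os01g0609900) averaged 276 ± 3.93 FPKM in stressed and 86.9 ± 2.05 FPKM in control leaves. MDR4 (Os01g0695800) averaged 354 ± 6.49 FPKM in stressed and 254 ± 3.68 FPKM in control leaves, a log2 difference of 0.48 that turned to -0.01 and did not pass after quantile normalization. Of 5 aquaporins and silicon transporters 4 fell, among them LSI6 (Os06g0228200), a silicon channel, at 33.6 ± 1.3 FPKM in stressed and 90.5 ± 0.215 FPKM in control leaves. Wax and cutin genes had 3 rises and 5 falls in 8, and the long-chain acyl-CoA synthetase gene OsLACS1 (Os05g0132100) was at 17.3, 14.3 and 13.8 FPKM in stressed leaves, against 154, 135 and 184 FPKM in control leaves, 9.82-fold lower.

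Sugar genes moved both ways, 14 higher and 13 lower of 27, near the share of all tested genes (49.6% higher, 50.0% lower). The monosaccharide transporter gene OsMST4 (Os03g0218400) was at 1444, 1407 and 1464 FPKM in stressed leaves, against 542, 566 and 559 FPKM in control leaves, 2.59-fold higher, whereas OsMST6 (Os07g0559700), of the same family, averaged 675 ± 7.98 FPKM in stressed and 1494 ± 15.9 FPKM in control leaves and fell. The trehalose-6-phosphate phosphatase genes OsTPP7 (Os09g0369400) and OsTPP1 (Os02g0661100) fell, and OsTPP7 averaged 231 ± 1.68 FPKM in stressed and 715 ± 8.29 FPKM in control leaves. SUS1 (Os03g0401300), sucrose synthase, was at 49, 55.8 and 52.4 FPKM in stressed leaves, against 513, 520.0 and 502 FPKM in control leaves, 9.61-fold lower. OSINV2 (Os04g0535600), an invertase of the vacuole, which also splits sucrose, was at 96.2, 96.5 and 102 FPKM in stressed leaves, against 10.3, 9.34 and 9.8 FPKM in control leaves, 9.18-fold higher. SUS1 and OSINV2 were picked after their values were seen. Among 13 genes of carbonic anhydrases and C4-type enzymes 7 rose and 6 fell, again near that share. The carbonic anhydrase gene BETACA1 (Os01g0639900) averaged 207 ± 3.63 FPKM in stressed and 529 ± 3.22 FPKM in control leaves, and flo4 (Os05g0405000), pyruvate orthophosphate dikinase, was at 247, 251 and 246 FPKM in stressed leaves, against 24.8, 22.8 and 23.1 FPKM in control leaves, 10.1-fold higher. In contrast osppdka (Os03g0432100), which carries a name of the same enzyme, averaged 2.69 ± 0.205 FPKM in stressed and 15.4 ± 0.569 FPKM in control leaves, 4.46-fold lower.

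Most genes of growth and the cell wall fell. Of 209 tested genes of the cell growth lists 41 rose and 168 fell, with a median log2 difference of -1.54. Over all tested genes 49.6% were higher and 50.0% lower. Several of these lists were drawn up after values were seen, as given above, so the pooled count describes chosen genes. Expansins and xyloglucan-modifying enzymes, counted apart from these, loosen the wall of growing cells and had 2 rises and 23 falls in 25. OsXTH17 (Os08g0237000) was at 144, 143 and 141 FPKM in stressed leaves, against 430.4, 428 and 442 FPKM in control leaves, 3.02-fold lower, and the beta-expansin gene OsEXPB3 (Os10g0555900) averaged 8.13 ± 0.627 FPKM in stressed and 44.4 ± 2.63 FPKM in control leaves. Cellulose synthases of the primary wall fell in concert, OsCesA3 (Os07g0424400) at 46.3 ± 0.339 FPKM in stressed and 151 ± 1.82 FPKM in control leaves, OsCesA6 (Os07g0252400) at 40.4 ± 2.48 FPKM in stressed and 143 ± 3.17 FPKM in control leaves and OsCesA1 (Os05g0176100) at 31.8 ± 1.24 FPKM in stressed and 101 ± 0.494 FPKM in control leaves. RALF peptides, secreted signals that limit cell expansion, had 1 rise and 12 falls in 13. OsRALF-5 (Os01g0257100) was at 3.55, 2.62 and 3.06 FPKM in stressed leaves, against 43.7, 33.7 and 36.4 FPKM in control leaves, 9.53-fold lower. The RALF gene that rose, OsRALF-29 (Os10g0569500), was at 6.98, 9.0 and 9.1 FPKM in stressed leaves, against 5.87, 5.72 and 7.13 FPKM in control leaves. Its groups overlapped, and the call was lost without stressed replicate 2 or 3 or control replicate 1 or 2.

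Most cytoskeleton and cell division genes fell too. Tubulin, actin and actin-binding genes had 4 rises and 10 falls in 14, but their summed FPKM was higher, at 681 to 700.4 in stressed and 410.0 to 417 in control libraries. The list's highest level in stressed leaves was that of OsADF3 (Os03g0820500), of an actin-depolymerizing factor, which was at 427, 418 and 395 FPKM in stressed leaves, against 0.62, 0 and 2.03 FPKM in control leaves and rose. OsADF5 (Os03g0243100), of the same family, averaged 131 ± 3.28 FPKM in stressed and 34.7 ± 1.51 FPKM in control leaves and rose as well. The beta-tubulin genes OsTUB1 (Os01g0282800) and OsTUB4 (Os01g0805900) fell. OsTUB1 was at 4.53, 4.62 and 5.55 FPKM in stressed leaves, against 56.3, 59.4 and 59 FPKM in control leaves, 10.1-fold lower, and OsTUB4 averaged 12.2 ± 0.476 FPKM in stressed and 84.6 ± 1.83 FPKM in control leaves. Of 15 genes of DNA replication and division 3 rose and 12 fell, CDC2 (Os06g0687600), which carries the name of a cyclin-dependent kinase, at 1.02 ± 0.218 FPKM in stressed and 8.41 ± 0.684 FPKM in control leaves, and the D-type cyclin gene CycD2 (Os07g0620800) at 1.99 ± 0.625 FPKM in stressed and 7.23 ± 0.561 FPKM in control leaves. The kinesin gene KIN14H (Os04g0629700), a microtubule motor, averaged 1.63 ± 0.135 FPKM in stressed and 26.3 ± 1.67 FPKM in control leaves. Pectin enzymes had 4 rises and 17 falls in 21, and TBL genes of wall polysaccharide acetylation 3 rises and 15 falls in 18, with OsTBL6 (Os03g0817800) at 3.09 ± 0.11 FPKM in stressed and 52.6 ± 1.09 FPKM in control leaves.

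All 30 genes of the secondary wall and of fasciclin-like arabinogalactan proteins (FLA) fell, with a median log2 difference of -2.06, and their summed FPKM was 121 to 131 in stressed and 958 to 1000.1 in control libraries. OsFLA6 (Os05g0563600) was at 14.3, 13.7 and 14.2 FPKM in stressed leaves, against 125, 132 and 133 FPKM in control leaves, 8.69-fold lower (log2 difference -3.12, SE 0.0415). BC1L4 (Os05g0386800), of the COBRA-like family of cellulose assembly, averaged 30.5 ± 2.52 FPKM in stressed and 114 ± 6.68 FPKM in control leaves. GDSL lipases had 8 rises and 27 falls in 35, and OsGELP77 (Os06g0156600) was at 3.25, 3.85 and 3.18 FPKM in stressed leaves, against 85, 88.3 and 88.8 FPKM in control leaves, 20.0-fold lower. Arabinogalactan proteins and early nodulin-like proteins had 5 rises and 17 falls in 22, and the highest level in stressed leaves was that of OsAGP21 (Os02g0718600) at 1052 ± 28.1 FPKM in stressed and 349.7 ± 12.2 FPKM in control leaves. OsENODL18 (Os06g0681200) averaged 201 ± 7.28 FPKM in stressed and 1.55 ± 0.212 FPKM in control leaves and rose, and OsAGP12 (Os01g0110200) averaged 0.917 ± 0.101 FPKM in stressed and 72.8 ± 5.06 FPKM in control leaves and fell. Lipid transfer proteins had 10 rises and 18 falls in 28, and OsLTP2.12 (Os10g0505700) averaged 320.0 ± 21.4 FPKM in stressed and 75.2 ± 1.34 FPKM in control leaves. In the same libraries 37 of 38 tested floral, anther and meristem genes fell. Many of the 38 reached 1 FPKM only in the controls, so only a fall could be called for them. Over all listed genes of those tissues the summed FPKM was 62.1 to 66.5 in stressed and 961 to 973 in control leaves. The part of those tissues in the falls of growth and wall genes was not tested.

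Floral organ identity genes were lower in the stressed leaves than in the LJ controls. All 16 tested members fell, with a median log2 difference of -2.75, against 50.0% lower over all tested genes, and 2 more were listed but too low to test. Many tested genes of the floral, anther and meristem lists reached 1 FPKM only in the controls. For such genes a fall was the only call possible, so these counts do not test direction. The floral organ identity list also takes in the YABBY family genes YAB1, OsYAB6, YAB3 and YAB4, so not every member is a gene of floral organ identity. OsYAB6 (Os12g0621100) was also seen in leaves of the other variety, at 11.4, 12.7 and 13.2 FPKM in QJ controls. In LJ it averaged 10.6 ± 0.365 FPKM in stressed and 29.8 ± 3.12 FPKM in control leaves. YAB1 (Os07g0160100), a factor of the YABBY family, had the highest level. It was at 3.19, 3.39 and 1.71 FPKM in stressed leaves, against 126, 124 and 127 FPKM in control leaves, 34.4-fold lower, and at 7.71, 5.93 and 6.53 FPKM in QJ controls. LHS1 (Os03g0215400), the MADS factor that specifies the floret meristem, was at 10.1, 9.69 and 10.0 FPKM in stressed leaves, against 79.1, 73 and 74.5 FPKM in control leaves, and at 1.63, 1.04 and 1.48 FPKM in QJ controls. It kept the second highest level of the list in the stressed libraries, after OsYAB6.

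Genes of each whorl of the rice floret were among them. OsMADS2 (Os01g0883100), needed for lodicules, was at 1.73, 1.17 and 1.73 FPKM in stressed leaves, against 32.4, 31.7 and 29.4 FPKM in control leaves, and OsMADS4 (Os05g0423400), its close relative of lodicule and stamen, at 0.33, 0.46 and 0.52 FPKM in stressed and 8.93, 9.1 and 8.56 FPKM in control leaves. OsMADS24 (Os09g0507200), which acts in the inner whorls, was at 0.72, 0.72 and 0.59 FPKM in stressed and 33.8, 37.3 and 37.2 FPKM in control leaves. In every QJ control it was listed at 0. MFO1 (Os02g0682200), a MADS factor of palea and floret identity, averaged 1.2 ± 0.215 FPKM in stressed and 22.4 ± 1.91 FPKM in control leaves, and MADS58 (Os05g0203800), of the class that sets stamen and carpel, averaged 0.153 ± 0.0404 FPKM in stressed and 4.57 ± 0.188 FPKM in control leaves. The carpel gene DL (Os03g0215200) averaged 0.30 ± 0.13 FPKM in stressed and 7.81 ± 0.303 FPKM in control leaves and the ovule gene OsMADS13 (Os12g0207000) averaged 0.0867 ± 0.0751 FPKM in stressed and 4.39 ± 0.080 FPKM in control leaves.

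Anther genes followed, 16 of 17 tested lower with a median log2 difference of -1.76, and 8 more listed below the limit for testing. OSC6 (Os11g0582500), a lipid transfer protein of the tapetum, had the highest level in the controls and was at 0.45, 0.45 and 0.89 FPKM in stressed leaves, against 150.1, 157 and 155 FPKM in control leaves. RTS (Os01g0929600), a tapetum gene, was listed at 0 in all 3 stressed libraries and at 123, 128 and 115 FPKM in control leaves. Both were under 1 FPKM in every stressed library, and OSC6 is also counted among the lipid transfer proteins. Osc4 (Os08g0546300), known from anthers, was at 5.26, 5.03 and 3.15 FPKM in stressed leaves, against 94, 95.5 and 96.9 FPKM in control leaves, 17.9-fold lower, and at 0.44, 0.45 and 0 FPKM in QJ controls. YY1 (Os09g0525500), another anther gene, was at 1.83, 1.28 and 1.99 FPKM in stressed leaves, against 48.7, 44.9 and 43.2 FPKM in control leaves, 17.4-fold lower. Genes of the pollen wall and the anther surface had lower levels in the controls. WDA1 (Os10g0471100), of anther wax, averaged 0.41 ± 0.131 FPKM in stressed and 21.4 ± 1.12 FPKM in control leaves. OsRAFTIN1 (Os08g0496800), a tapetum protein needed for pollen, averaged 0.0833 ± 0.0289 FPKM in stressed and 12 ± 0.844 FPKM in control leaves. OsLAP6 (Os10g0484800), of sporopollenin synthesis, averaged 0.050 ± 0.0866 FPKM in stressed and 10.3 ± 0.848 FPKM in control leaves, and CYP704B2 (Os03g0168600), of the same pathway, averaged 0.16 ± 0.0889 FPKM in stressed and 5.72 ± 0.571 FPKM in control leaves. The bHLH factors that steer tapetum development were low throughout, Udt1 (Os07g0549600) at 0.543 ± 0.239 FPKM in stressed and 1.88 ± 0.419 FPKM in control leaves and TDR (Os02g0120500) at 0.383 ± 0.107 FPKM in stressed and 3.13 ± 0.0608 FPKM in control leaves. EAT1 (Os04g0599300), the bHLH factor that follows them, was the 1 member that rose, at 3.88 ± 0.501 FPKM in stressed and 1.42 ± 0.159 FPKM in control leaves. All 5 tested meristem and inflorescence genes fell, among them the class 1 knotted genes OSH15 (Os07g0129700) at 4.07 ± 0.369 FPKM in stressed and 14.4 ± 1.22 FPKM in control leaves and OSH1 (Os03g0727000) at 1.36 ± 0.0346 FPKM in stressed and 8.93 ± 0.863 FPKM in control leaves. The listed members too low to test were higher in stressed leaves. OsG1L9 (Os05g0347400) averaged 1.01 ± 0.07 FPKM in stressed and 0.317 ± 0.123 FPKM in control leaves. RFL (Os04g0598300) averaged 0.183 ± 0.104 FPKM in stressed leaves and was listed at 0 in the controls. Calls of MSP1 (log2 difference -0.71) and YAB3 (-0.70) were lost after median centring, at -0.17 and -0.16.

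**Figure D4:**
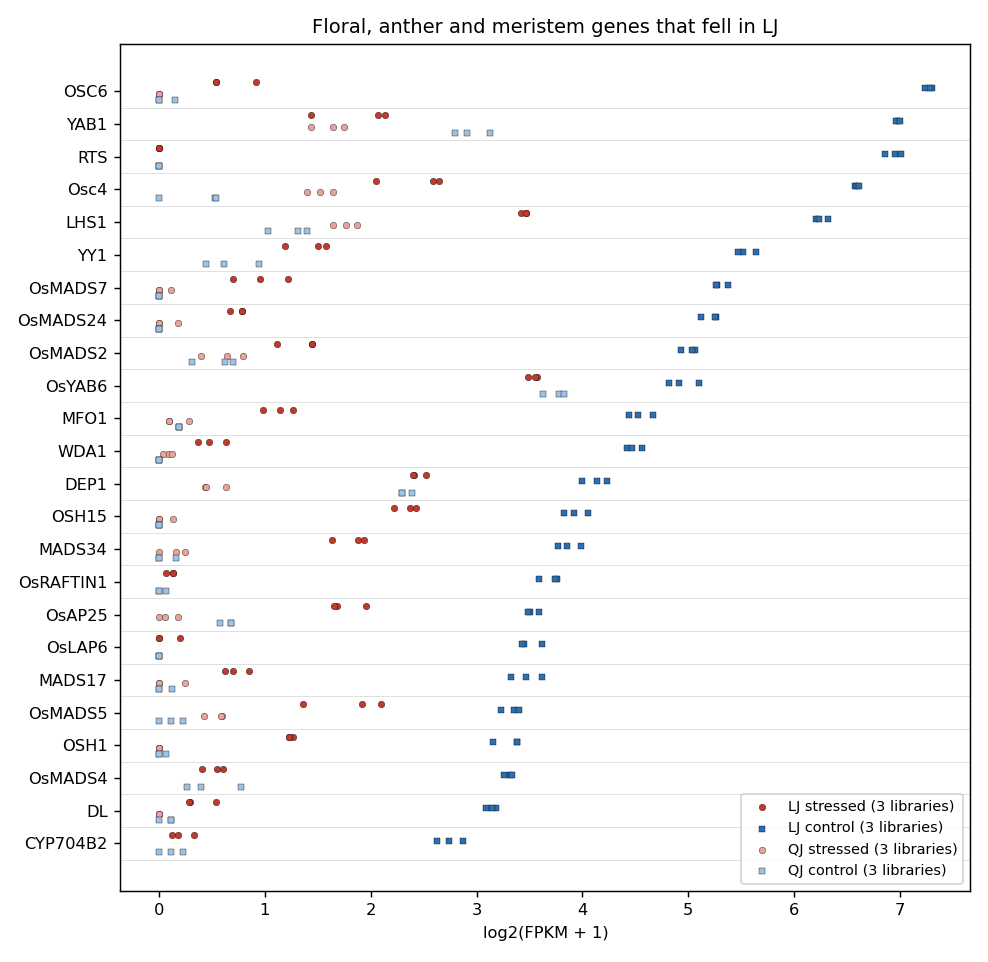
Expression as log2(FPKM + 1) of the floral, anther and meristem genes that fell in LJ and averaged at least 5 FPKM in its controls, with red circles for stressed and blue squares for control LJ libraries, and paler marks for stressed and control QJ libraries where another table lists the gene. The LJ control libraries lie to the right of every other group in each gene shown.

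Most of these genes were low in leaves of the other variety. Of the 50 listed, 47 had QJ control values, and 40 of the 47 were under 1 FPKM in all 3 QJ controls. Over those 47 genes the summed FPKM was 60.9 to 65.2 in stressed LJ, 961 to 973 in control LJ and 32.4 to 33.9 in control QJ libraries. In sum the stressed LJ leaves were nearer to the QJ controls than to the LJ controls, but the choice of genes favours this. All were listed as changed in LJ, and QJ control values exist only for genes selected in a further comparison that used the QJ controls. Low levels in the QJ controls were also counted over all changed genes. Of 2337 genes that fell in LJ and had QJ control values, 964 (41.2%) were under 1 FPKM in all 3 QJ controls, and of 136 such genes with falls of at least 8-fold 77 (56.6%) were. Among 1763 genes that rose and had such values 379 (21.5%) were under 1 FPKM there, and among 270 with rises of at least 8-fold 72 (26.7%). For 229 of the 257 listed cell growth genes the QJ controls had values, and 138 of these genes were under 1 FPKM in all 3. Over all listed genes, 4914 had QJ control values and 2067 of those were under 1 FPKM in all 3. The counts of fallen and risen genes cover passing genes only, whereas those of the lists and of all listed genes include genes too low to test. A gene has QJ values only if another of the 4 tables selected it as changed, so these shares hold for selected genes. They set levels across tables, and no test was made of them because the tables share the LJ controls.

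**Figure D5:**
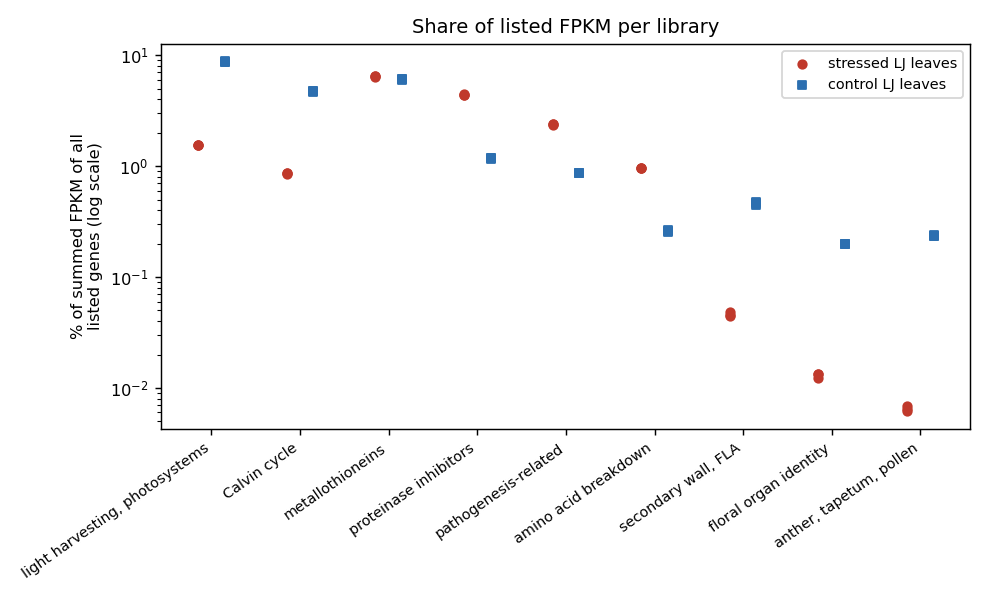
Share of the summed FPKM of all listed genes, in percent on a log axis, held by 9 gene lists in each of the 3 stressed (red circles) and 3 control (blue squares) LJ libraries. Photosynthesis, secondary wall and floral lists are lower in the stressed libraries, proteinase inhibitors, pathogenesis-related and amino acid breakdown genes higher, and metallothioneins hold similar shares in both.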

How the data were processed

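Per the labels' protocols, total RNA of LJ leaves was sequenced on a NovaSeq X Plus, and samples were grouped by their titles. The deposited values are FPKM per gene and library, with log2 fold changes, p-values and adjusted p-values of the authors' own test. The aligner, genome build, counting, test and reads per library: not given in the sources used here. All columns of per-sample values were matched to a title (0 unmatched), and 0 of 31572 values present in more than 1 table differed between tables. FPKM ratios lay a median of 0.142 below the authors' log2 fold changes, and 6 listed genes had the opposite sign.

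Computed here were the limma fit (limma 3.58.1, R 4.3.3, trended prior, pseudocount of 1, two-sided, passing at an adjusted p under 0.05), list counts and sums (pandas 2.3.3, numpy 2.4.6, Python 3.11.15) and figures (matplotlib 3.10.9). The fit was tested on simulated data. Genes, 57 gene lists and tests were chosen with earlier results of these data known. Lists were matched by gene name, and 18 of the 57 lists, plus the removal of 60 wrong matches, were chosen after values were seen. By rule the text could name the 10 largest rises and falls in FPKM and, per list, up to 3 members in each direction with the highest level, of at least 5 FPKM. Some members further down are named as well, after their values were seen, in the lists of light harvesting, Calvin cycle, chlorophyll breakdown, antioxidants, iron, amino acid breakdown, sugar, floral organ identity and anther. The rule gave 302 genes, whose limma adjusted p (Benjamini-Hochberg) was at most 0.019, with groups separate in 301. RNA from genes outside the deposited tables was not analysed here. Alternatives were other pseudocounts, filters, scalings and priors, a replicate block, and leaving out each library.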

Additional observations from a re-analysis of the deposited data

How the results depend on the processing

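The fit was repeated under each alternative. With no filter on low values 7139 genes passed, 3379 higher and 3760 lower. With a filter at 5 FPKM fewer genes were tested and 3979 passed, 1735 of them lower. Of 114 counts of list members passing in 1 direction, 32 moved by over 1.5 times with the 5 FPKM filter, 11 with no filter and 1 after median centring or quantile normalization. Genes changed at least 8-fold depended on the pseudocount and the scaling, with 519 higher and 510 lower at a pseudocount of 0.1, 451 and 368 at 0.25, and 460 and 75 after median centring. Leaving out each library in turn gave 5954 to 5964 genes passing, 2964 to 2968 higher, 2989 to 2998 lower, and 293 to 304 higher and 136 to 143 lower by at least 8-fold. Same-numbered replicates did not deviate together, with correlations of -0.04, 0.03 and 0.05 for numbers 1 to 3, so no pairing was used. With the replicate number as a block 5973 genes passed, 2974 higher and 2999 lower, and none of the 114 list counts moved by over 1.5 times. MDR4 turned to -0.00992 after quantile normalization, and the cause was not tested. YAB3 also lost its call there, at -0.32. OsRALF-29 lost its call in 4 of 6 fits without a library, at 0.31 to 0.33. Shares of listed FPKM moved by less than the spread between replicates in all 30 recomputations without a library. Unknown depth limits what can be said of genes near 0.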

Other observations

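In limma with Benjamini-Hochberg adjustment 20 tested genes did not pass, although the authors' deposited table lists them as changed. WGL2 (Os03g0769100) was at 94.2, 145 and 23.3 FPKM in stressed leaves, against 79.9, 85.9 and 72.2 FPKM in control leaves. OsVQ2 (Os01g0653300) was at 40.1, 63.7 and 44.5 FPKM in stressed leaves, against 35.1, 69.5 and 28.8 FPKM in control leaves. In OsNek1 (Os03g0636800) 1 control library stood apart, with 1.52, 1.57 and 1.73 FPKM in stressed leaves, against 0.41, 0.71 and 8.77 FPKM in control leaves. The groups overlap in each of these genes, which were picked after their values were seen.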
